A study of Drosophila melanogaster with 12 samples.

Results

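The Iroquois complex of Drosophila melanogaster consists of the 3 genes ara (araucan), caup (caupolican) and mirr (mirror). Its units were taken from the study's annotation of transcription units on the dm6 build, as every unit whose gene field names one of these symbols. That gave 3 units of 15991 in all, 1 for each gene, and none of the 3 held another gene, whereas 7.22% of units on the large chromosome arms did. The series itself is a set of mNET-seq libraries, which sequence the nascent RNA held by immunoprecipitated RNA polymerase II, from S2 cells, a male fly cell line grown in suspension. Its 12 libraries form 6 groups of 2 replicates: MSL1 RNAi, MOF RNAi and control RNAi (titled GST), each profiled once for total Pol II and once for the polymerase with phosphorylated serine 5 (Ser5P) in its C-terminal repeats. By the series' design text, RNAi lasted 4 days for MOF and 2 days for MSL1 and for the control, so the MOF groups differ from the control in both target and duration. The annotation holds units only and no measurement from any of the 12 libraries. Coverage was not analysed here, so neither the level of ara, caup or mirr in S2 cells nor any effect of RNAi on them is reported, and the depth of the libraries is unknown. The annotated layout of the complex is described, with no replicates and no statistical test.

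Iroquois genes encode homeodomain transcription factors of the TALE class, in which the homeodomain carries an inserted loop. In the fly, ara and caup are known as prepattern genes of the wing disc. There they promote expression of the proneural genes ac and sc and so the placing of bristles. Both also act in the placing of veins. All 3 genes act in the dorsal part of the eye, and mirr is also known for patterning the dorsal follicle cells of the egg chamber. Enhancers of such complexes can lie far from the promoters and can serve more than 1 gene, which is why order, strand and intervening sequence are of interest. Vertebrate Irx genes are likewise clustered, and in many animals an Irx gene neighbours a Sowah gene.

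The 3 genes lay on the left arm of chromosome 3 in the order ara, caup, mirr, and all 3 were transcribed from the plus strand, rightward. The ara unit (FBgn0015904) ran from 12580672 to 12596018. The caup unit (FBgn0015919) ran from 12609631 to 12621798. The mirr unit (FBgn0014343) ran from 12693639 to 12710249. From the start of ara to the end of mirr the complex spanned 129578 bp. Plus-strand units made up 49.7% of the 12938 units with a protein-coding gene (coding units) on the large arms 2L, 2R, 3L, 3R and X, and 40.9% of coding units lay in a run of at least 3 consecutive coding units on 1 strand. The run of ara, caup and mirr had exactly 3 members, because the coding neighbours at both of its ends lay on the minus strand. A shared strand for 3 adjacent genes is therefore common in this annotation.

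The Iroquois units were long. The mirr unit measured 16611 bp, the ara unit 15347 bp and the caup unit 12168 bp. All 3 exceeded 10000 bp, as did 12.3% of the 15739 units on the 5 large arms and 14.7% of the coding units there. The median length was 1828 bp over all units and 2230 bp over coding units. Units at least as long as mirr made up 7.80% of all units on these arms, those at least as long as ara 8.34% and those at least as long as caup 10.3%. The 3 lengths thus sat close to each other in the upper part of the distribution, with caup the shortest and mirr the longest. Among units of 3L alone the same shares were 7.53% for mirr, 8.24% for ara and 10.4% for caup.

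Isoform numbers differed among the members. The mirr unit listed 3 transcript IDs, the ara unit 2 and the caup unit 1. Of coding units on the 5 large arms, 52.9% had more than 1 transcript ID, and 27.3% had at least 3. The order of isoform numbers was the order of unit lengths, which for 3 genes is only a description. The RefSeq gene table gave the same number of transcripts for each gene, and it gave 3 proteins for mirr, 2 for ara and 1 for caup. Its gene spans were identical to the units for all 3 genes. The transcript numbers were equal in 98.7% of 11852 single-gene coding units and the spans in 99.4%, so the table is no independent source. The annotation gives no coordinates of single transcripts, so where the isoforms of mirr or ara start and end was not analysed here.

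**Figure D1:**
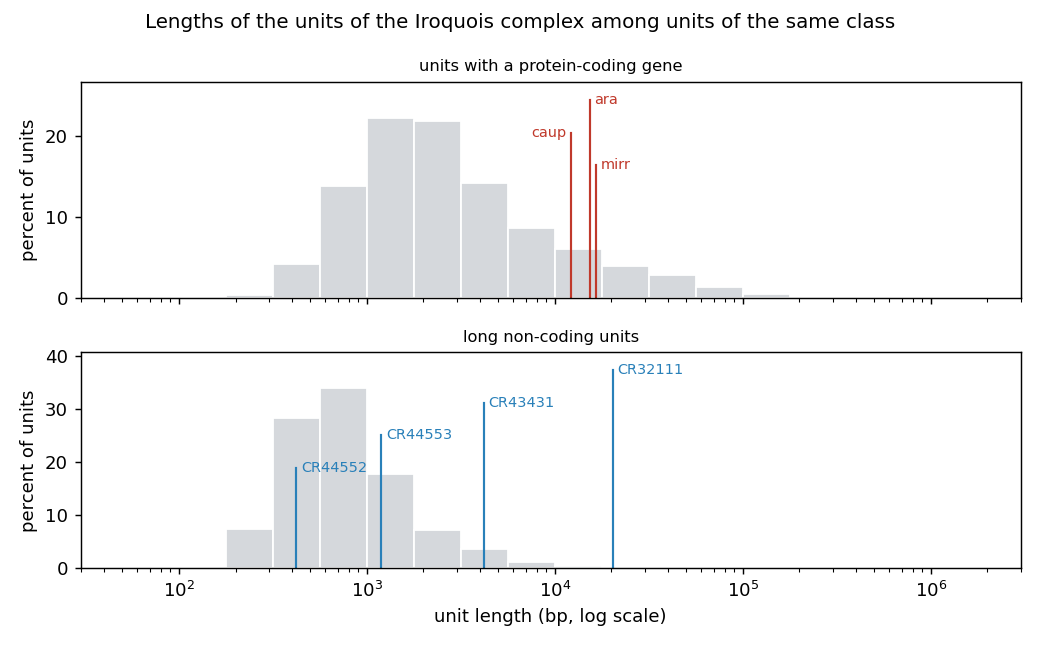
Unit lengths in bp on a log scale, as the percent of units per bin, for 12938 coding units (top, with ara, caup and mirr marked) and 2085 long non-coding units (bottom, with the 4 non-coding units of the complex marked) on the 5 large arms. The 3 Iroquois units lie between 12168 and 16611 bp, right of the main peak, and CR32111 lies at the far right of the non-coding units.

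Each Iroquois gene stood apart from its neighbours. Counting both strands, the closest other unit was 23114 bp away for mirr, 8129 bp away for ara and 6135 bp away for caup. All 3 of these gaps were over 5000 bp, which held for 3.93% of all units on the 5 large arms and for 3.06% of coding units. The median distance to the nearest unit was 69 bp over all units, with overlapping units counted as 0. Only 0.464% of units (73 of 15739) had a nearest neighbour at least as far away as that of mirr, against 2.25% for the distance of ara and 3.14% for that of caup. Counted on the same strand only, where the median distance over all units was 1041 bp, the distances were less unusual. They were 24695 bp for mirr, 13612 bp for ara and 6135 bp for caup, and 2.53%, 6.23% and 15% of units, in that order, had a same-strand neighbour at least as far away. Having no unit within 5000 bp on either strand also fixes the absence of overlap and of a close divergent start, which are thus no further traits. None of the 3 Iroquois units was overlapped by a unit on the other strand, and most units were not, since 39.4% were. Likewise, none of the 3 had a divergent start, on the minus strand and facing away, within 1000 bp. As 33.4% of all units had one, its absence is common, and 34.5% of units had a divergent start at least as far away as the 8130 bp of ara. Taken jointly, 88 of the 12938 coding units (0.680%) held 1 gene, measured at least 10000 bp and lay over 5000 bp from the nearest unit. Such a distance also means no overlap. As ara, caup and mirr were already seen to meet each condition, they are 3 of these 88.

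The free sequence on the 5′ side of each gene lengthened along the complex. It measured 8129 bp upstream of ara, 13612 bp upstream of caup and 31391 bp upstream of mirr. The median upstream gap was 357 bp over all units of the 5 large arms, and gaps at least as long were found for 7.77%, 4.19% and 1.04% of them, in the order ara, caup and mirr. On the 3′ side no such order was seen. The downstream gap was 13612 bp for ara, 6135 bp for caup and 23114 bp for mirr, where the median was 166 bp. Downstream gaps at least as long were found for 4.30%, 9.60% and 1.96% of all units, in the same order. The space between ara and caup is counted for both genes, as the downstream gap of ara and the upstream gap of caup.

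**Figure D2:**
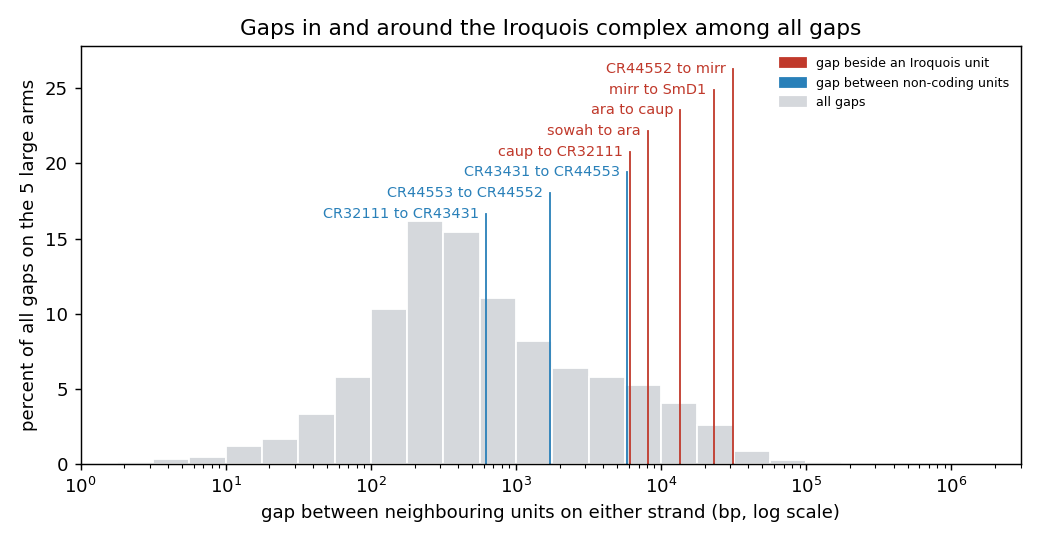
Gaps between neighbouring units on either strand, in bp on a log scale, as the percent of 12040 gaps on the 5 large arms per bin, with the 8 gaps from sowah to SmD1 marked. The 5 gaps beside an Iroquois unit lie between 6135 and 31391 bp, far right of the median of 463 bp, and the gap of 626 bp between CR32111 and CR43431 lies near it. The shares of all gaps at least as long are 10.1% (sowah to ara), 5.55% (ara to caup), 12.7% (caup to CR32111), 1.43% (CR44552 to mirr) and 2.57% (mirr to SmD1).

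At its left end the complex faced sowah, head to head. The sowah unit (FBgn0036302) lay on the minus strand from 12537513 to 12572542, measured 35030 bp and listed 4 transcript IDs, more than any Iroquois unit. Its start and the start of ara were 8130 bp apart with no unit between them. Of 3664 pairs of consecutive coding units in this orientation, 10.4% had a gap at least as large, and their median gap was 381.5 bp. The non-coding unit CR43612 lay within the span of sowah on the plus strand, from 12541710 to 12542953, and was the nearest plus-strand unit left of ara, at 37718 bp.

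At its right end the complex met SmD1, tail to tail. SmD1 encodes a core Sm protein of the spliceosome. Its unit lay on the minus strand from 12733364 to 12734611 and measured 1248 bp. The 3′ ends of mirr and SmD1 were separated by 23114 bp. Of 3665 pairs of consecutive coding units in the tail-to-tail orientation, 3.36% had a gap at least as large, and their median gap was 17 bp. Next came Ptp69D, a receptor tyrosine phosphatase gene known from axon guidance, on the plus strand from 12734945 to 12741568. It started 334 bp from SmD1, so the spacing beyond SmD1 was close again.

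All intervening non-coding units lay between caup and mirr. There were 4 of them, CR32111, CR43431, CR44553 and CR44552, and the RefSeq table classes each as a long non-coding RNA. No unit lay between ara and caup, and no protein-coding unit other than caup lay between ara and mirr. Of 12933 pairs of consecutive coding units on the 5 large arms, 8.76% had at least 1 non-coding unit of any class between them. At least 4 lay between 0.495% (64 pairs). A wide gap leaves room for more units, and pairs of similar distance were not compared. The distance between the caup and mirr units was 71840 bp, and 0.964% of 5604 head-to-tail pairs of consecutive coding units were as far apart or farther. By comparison, the 13612 bp between ara and caup were reached by 9.65% of such pairs.

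The CR32111 unit came first after caup, 6135 bp from its end and on the same strand. It ran from 12627934 to 12648280 and measured 20347 bp, longer than each of the 3 Iroquois units, and it listed 2 transcript IDs. Only 5 of 2085 long non-coding units on the 5 large arms, CR32111 included, were at least that long (0.240%), and the median of that class was 706 bp. CR43431, from 12648907 to 12653090, was the only minus-strand unit of the complex. It measured 4184 bp and faced CR32111 tail to tail across 626 bp, the shortest gap in the complex. CR44553, from 12658903 to 12660095, measured 1193 bp, and its start lay 5813 bp from that of CR43431, head to head. CR44552, from 12661826 to 12662247, measured 422 bp and followed CR44553 at 1730 bp. The last 2 are plus-strand units of ordinary length for their class, since 24.0% of long non-coding units were at least as long as CR44553 and 80.6% at least as long as CR44552.

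These non-coding units were far from coding sequence. The nearest coding unit was 33543 bp from CR44553, 31391 bp from CR44552 and 27108 bp from CR43431, against 6135 bp for CR32111. All 4 distances exceeded 5000 bp, as did those of 18.2% of long non-coding units, whose median was 365 bp. Only 10 of the 2085 (0.480%) were at least as far from a coding unit as CR44553. For CR44553 and CR44552 that coding unit was mirr, which lay downstream on the same strand. For CR32111 and CR43431 it was caup.

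Over the whole span, the 3 Iroquois units covered 44126 bp (34.1%), the 4 non-coding units covered 26146 bp (20.2%) and 59306 bp (45.8%) held no unit. The complex was emptier than the stretches on both sides of it. It held 7 unit starts, 3 of them coding. A window of the same length directly left of ara held 27 starts, 23 of them coding, and one directly right of mirr held 18 starts, 17 of them coding. Units covered 54.2% of the complex, against 79.4% of the left window and 79.9% of the right window. Over the arm 3L from its first to its last unit, 64.5% was covered. Of 12921 windows of this length that start at a coding unit on the 5 large arms, 13.2% were covered as little as the complex or less, and their median was 81.3%. The contrast was larger for coding units alone, which covered 34.1% of the complex, 79.0% of the left window, 79.9% of the right window and 62.9% of 3L. The ends of the complex were set by its genes, while the windows beside it were not, so the windows are given only to show the change in density. The coding neighbours of the complex were 160821 bp apart, from the end of sowah to SmD1. Of 12918 runs of 3 consecutive coding units on the 5 large arms, 1.52% had as much space or more between their coding neighbours, and the median was 16096 bp.

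The neighbourhoods of the 3 starts differed. Within 20 kb on either side of its start, mirr had 0 other unit starts, while ara had 1 and caup had 1. Within 50 kb, ara had 8, caup 5 and mirr 6, where the median over all units was 16. As few starts within 50 kb were found for 14.1% of units in the case of ara, 5.74% for caup and 8.18% for mirr. Within 100 kb, caup and mirr each had 18 other starts, below the median of 30, but ara had 29. The only other start within 20 kb of ara was that of sowah. The dense stretch on its left, with 27 starts in the left window, thus lay farther off. Of the coding starts within 50 kb, ara had 6, mirr 3 and caup 2, against a median of 14 for coding units.

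**Figure D3:**
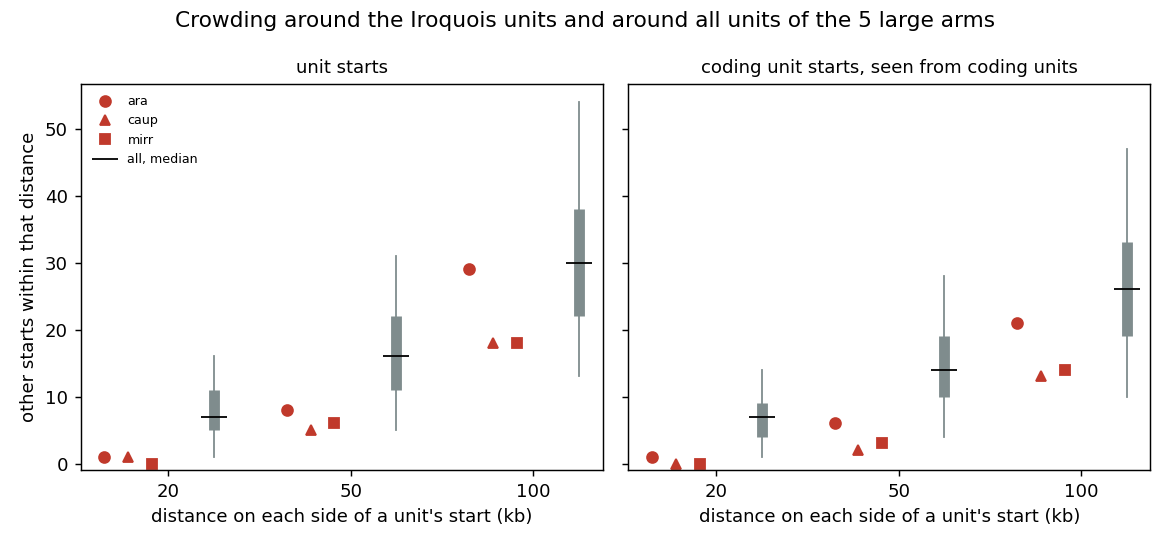
Number of other unit starts (left) and, for coding units, of other coding starts (right) within 20, 50 and 100 kb on each side of a start, for ara, caup and mirr (red) and for all units of the 5 large arms (bar over the middle quartiles, thin line between the outer 5% at each end, dash at the median). At 100 kb ara has 29 other starts, near the median of 30, while caup and mirr have 18 each.

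The layout was set beside 3 other clusters of transcription factor genes, as a description with no test. The achaete-scute complex, whose proneural genes ac and sc are among the genes known to act downstream of ara and caup, lies on X. Its 4 genes (ac, sc, l(1)sc and ase) were also all on the plus strand with no other coding unit starting and ending between them, over 93146 bp. In contrast to the Iroquois units, all 4 of its units were overlapped on the other strand. The minus-strand unit of CG32816, 154151 bp with 4 genes, protein-coding ones among them, covered the whole cluster. Where the genes of that unit lie relative to the cluster members was not analysed here. The 3 Iroquois units had a median length of 15347 bp, against 1267.5 bp for the achaete-scute units, and members took up 34.1% of the span of the Iroquois complex but 6.31% of that of the achaete-scute complex, with 30.9% in the NK homeobox cluster and 15.8% in the Enhancer of split cluster. The gaps between neighbouring members ran from 13612 to 71840 bp in the Iroquois complex, from 12223 to 49929 bp in the achaete-scute complex, from 6909 to 53448 bp in the NK homeobox cluster and from 1217 to 15799 bp in the Enhancer of split cluster. Units of any kind covered 54.2% of the Iroquois complex, 100% of the achaete-scute complex, 44.8% of the NK homeobox cluster and 37.5% of the Enhancer of split cluster. Non-coding units within the span numbered 4 in the Iroquois complex, 2 in the achaete-scute complex, 6 in the NK homeobox cluster and 5 in the Enhancer of split cluster. Neither a high share of member sequence, nor wide spacing, nor low cover, nor intervening non-coding units were therefore found in the Iroquois complex alone.

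The Enhancer of split bHLH genes, Notch targets that repress neural fate, formed the most compact of the 4 clusters, with 7 members over 43388 bp of 3R. Members lay on both strands, 5 plus and 2 minus, among 5 other coding and 5 non-coding units. Their units ran from 769 to 1305 bp, and each listed 1 transcript ID. The NK homeobox cluster on 3R, whose genes tin and bap act in mesoderm and heart formation, was the most extended of the 4. Its 6 members were spread over 178206 bp, 3 on each strand, with 6 other coding units and 6 non-coding units between them. Its units ran from 1570 bp for bap to 24155 bp for lbl. Over 5000 bp from the nearest unit lay 3 of 3 members of the Iroquois complex, against 2 of 6 in the NK cluster (bap and slou), 0 of 4 in the achaete-scute complex and 0 of 7 in the Enhancer of split cluster. With 3.06% of all coding units that far away, counts of 0 among so few genes are near the background. The 0 of the achaete-scute complex also follows from the CG32816 unit, which covers all 4 members on the other strand. Gaps between its neighbouring members ran from 12223 to 49929 bp, non-coding units between them left aside. Distances on the same strand were not compared for this cluster.

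**Figure D4:**
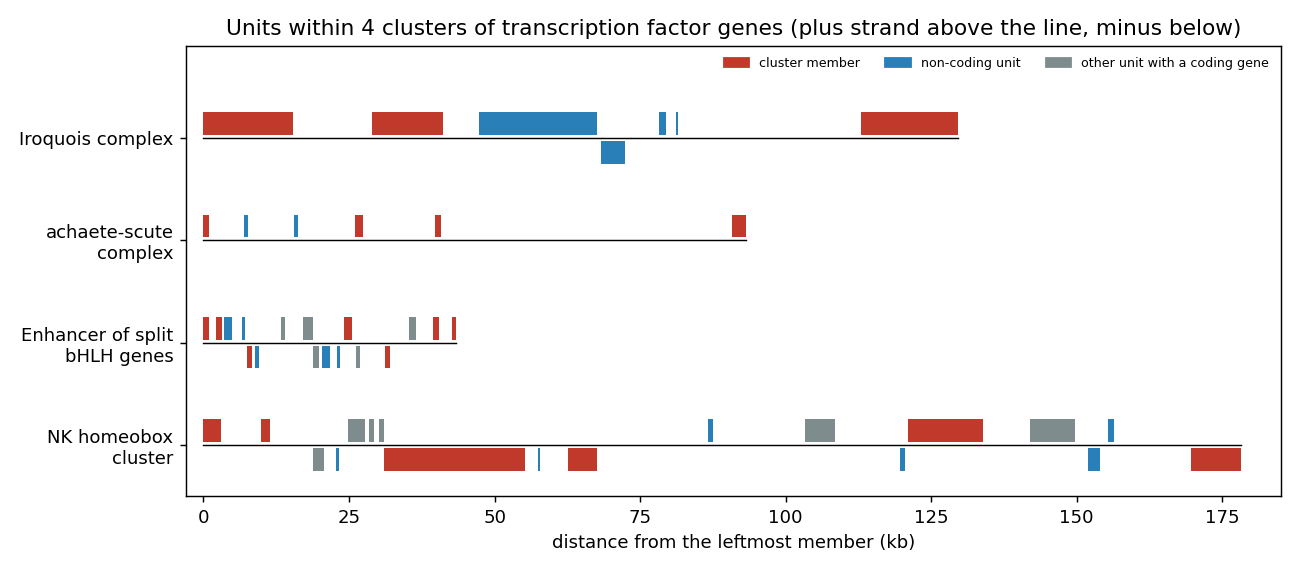
Units that lie between the ends of the Iroquois complex and of 3 other clusters, with distance from the leftmost member in kb on the horizontal axis, plus-strand units above each line and minus-strand units below. The Iroquois complex and the achaete-scute complex have all members on 1 strand and no other coding unit that starts and ends among them. The CG32816 unit, which holds protein-coding genes, covers the whole achaete-scute complex, reaches beyond it and is not drawn.

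The units of genes related to the complex by class or by pathway varied. A list of 4 other TALE homeobox genes, which may be partial, was drawn up by homeodomain class. Among these 4, 1 unit exceeded 10000 bp, that of hth, whose protein is a cofactor of Hox proteins. It measured 132008 bp, held mir-4944 as well, and was the longest of the TALE list, Iroquois genes included. The units of exd, achi and vis measured 4042, 3529 and 2720 bp, and none of the 4 lay over 5000 bp from its nearest neighbour. All 4 listed more than 1 transcript ID. Over all coding units, 14.7% were that long, 3.06% that isolated and 52.9% had more than 1 transcript ID, so 1 long unit and 0 isolated units of 4 are near the background.

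Of 16 genes of the signals and transcription factors known to pattern Iroquois expression or to act beside it (dpp, hh, ci, wg, Egfr, vn, grk, pnr, ush, salm, salr, tup, eyg, upd1, hop and Stat92E), 10 had units of at least 10000 bp, 4 were overlapped on the other strand and 2 lay over 5000 bp from the nearest unit. Of coding units on the 5 large arms, 14.7% reached that length and 3.06% that distance, and 39.4% of all units there were overlapped. The ci unit, among the 4 overlapped ones, lies on chromosome 4 and so outside these arms. The 2 isolated ones were salm, a zinc finger gene of wing vein patterning, at 39092 bp and wg, a Wnt ligand gene, at 12678 bp. The salm unit was thus more isolated than that of mirr. The eyg unit, that of a Pax family gene of eye and notum, lay on the same arm as the complex, 112650 bp left of ara with 26 units between them. Of 6 genes known to act downstream of Iroquois genes (ac, sc, fng, Ser, pip and rho), 3 had units of at least 10000 bp and 5 were overlapped, beside the same background of 14.7% and 39.4%. The overlaps of ac and sc are with 1 and the same unit, that of CG32816. Among the downstream genes, pip, a sulfotransferase gene repressed by mirr in the follicle cells, had 12 transcript IDs on a unit of 38987 bp, and fng, a glycosyltransferase gene that modifies Notch, had 1 on a unit of 23622 bp.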

How the data were processed

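The deposited file is an annotation of transcription units. Per the file headers rtracklayer 1.48.0 produced it, and the source field refers to merged database versions. The rule for merging is not given in the sources. Its start and end positions, deposited by the authors, are 1-based on dm6, and the score field is empty. Per the submitters' processing notes, cutadapt 2.8, STAR 2.7.4a and SAMtools 1.20 were used for the libraries, whose values were not analysed here, so the planned edgeR tests between RNAi groups were not run. Promoter and protein sequences were not used here.

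Gene classes came from the RefSeq gene table of Release 6, matched by symbol (14056 genes), then by locus tag or synonym (3540), which left 102 of 17698 genes unmatched. A coding unit holds a protein-coding gene. Long non-coding units hold only genes that RefSeq classes as long non-coding RNA, antisense RNA or unspecified non-coding RNA (ncRNA). Gaps count the free bases up to the next unit on either strand and are 0 for overlapping or touching units. Consecutive coding units are taken in order of their left ends. A share "at least as long" counts the unit itself. The gap, overlap and cover functions were tested on simulated data, with 0 mismatches over 1200 intervals. The tools were pandas 2.3.3, NumPy 2.4.6 and SciPy 1.17.1 under Python 3.11.15, with Matplotlib 3.10.9 for the plots.

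Named genes are the members, every unit between them, the 2 nearest units beyond each end and fixed lists of 3 clusters, TALE genes, regulators and downstream genes. The members and lists were chosen with earlier results of these data known. Alternatives covered the units compared, RefSeq spans and transcripts, the neighbours counted, the window and the length of non-coding units.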

Additional observations from a re-analysis of the deposited data

How the results depend on the processing

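No paired analysis was possible because the annotation holds nothing measured per replicate, which also means that no replicate could be dropped. The lengths and isoform numbers of ara, caup and mirr were identical with RefSeq spans and transcripts. As 99.4% of spans and 98.7% of transcript numbers matched among single-gene coding units, that is no independent check. Set against coding units only, the shares of units at least as long were 10.0% for ara, 12.3% for caup and 9.37% for mirr. On the same strand only, the nearest gap was 13612 bp for ara and 24695 bp for mirr. Among coding units only, the nearest gap was 13612 bp for caup. Counting fewer neighbours can only lengthen a gap, so these settings could not bring any of the 3 below 5000 bp. The share of units with a nearest gap at least as long rose on the same strand, to 6.23% for ara, 15% for caup and 2.53% for mirr, in place of 2.25%, 3.14% and 0.464% on either strand. As few starts nearby as ara were found for 6.09% of units at 20 kb and 47.0% at 100 kb in place of 14.1% at 50 kb, and for 12% of coding units. For caup the share was 15% at 100 kb and 2.65% among coding units, and for mirr it was 2.25% at 20 kb, 15% at 100 kb and 4.44% among coding units. The low crowding around ara thus depends on the window, since at 100 kb it takes in the dense stretch left of the complex. Counting non-coding units of at least 500 bp left 3 of 4. Other scorings of promoter motifs and protein identity, and other fits of nascent RNA, were not run, since sequences and library values were not used here. An annotation has no depth, and shares describe its units only.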
